A study of Mus musculus with 2 samples.

Results

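Annexins and their S100 partners were examined through 10 genes, *Anxa1* to *Anxa6*, *S100a4*, *S100a6*, *S100a10* and *S100a11*, which were taken by symbol from the 18159 genes of the mRNA-seq table, and all 10 were found. The values come from the jejunal tunica muscularis, the muscle layer peeled off the mucosa of this stretch of gut, at an age of 15 days, with 1 library from *Dnmt1*-WT and 1 from *Dnmt1*-KO mice. *Dnmt1*-WT mice carried smMHCCre-eGFP/+, a transgene in which the *Myh11* promoter drives Cre and eGFP, and *Dnmt1*-KO mice carried the same transgene with floxed *Dnmt1* alleles, so that both groups express Cre. The labels give C57BL/6 as background, and their strain entry names the Tg(Myh11-cre,-EGFP)2Mik transgene and, separately, Dnmt1lox/lox for both samples. *Dnmt1* is deleted in cells with *Myh11* promoter activity, while the other cells of the muscle wall keep it and their RNA is part of each library. Mice of both sexes stand behind each library according to the methods, which do not say how their RNA was combined. The description field names the knockout for both samples, and groups were therefore taken from the genotype label, which matches the titles.

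Annexins are cytosolic proteins that bind acidic membrane phospholipids when calcium rises, and they take part in membrane traffic, membrane repair and the link between membranes and actin. S100 proteins are small calcium sensors with EF hands that act mostly as dimers. Several S100 dimers bind the N-terminus of an annexin, as *S100a10* does with *Anxa2* and *S100a11* with *Anxa1*, and so bring a pair of annexin molecules together. Both families are found in smooth muscle, and some members are also abundant in macrophages, fibroblasts and epithelium.

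The level of 9 of the 10 transcripts was higher in the *Dnmt1*-KO library, and 4 of them, *Anxa1*, *S100a6*, *S100a10* and *S100a11*, reached at least 2 when the *Dnmt1*-KO level was divided by that of *Dnmt1*-WT. None had a ratio of 0.5 or less, and *Anxa6* was the only member with a lower level in *Dnmt1*-KO. Levels are in FPKM, fragments per length of transcript and per mapped total, and can be compared between genes. Over the 16102 genes above 0 FPKM in both libraries a ratio of 2 or more was found for 11.8%, a ratio of 0.5 or less for 4.98% and a ratio above 1 for 50.3%. The median log2 ratio was 0.90 for the members and 0.005 for all of these genes. Large ratios are more common among weakly expressed genes, and every member had a geometric mean of the libraries above 10 FPKM. Among the 6420 genes at that level, 3.61% had a ratio of 2 or more and 2.41% a ratio of 0.5 or less, while 47.0% were above 1 and 53.0% below. Each genotype has 1 library, so none of these differences could be set against the spread between mice, and no test was made. The members and the lists below were chosen with earlier results of these data known. Their counts are therefore descriptions and do not measure an excess over all genes. In whole tissue, more cells of a type and more RNA per cell cannot be told apart, nor can fewer cells and less RNA per cell.

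**Figure D1:**
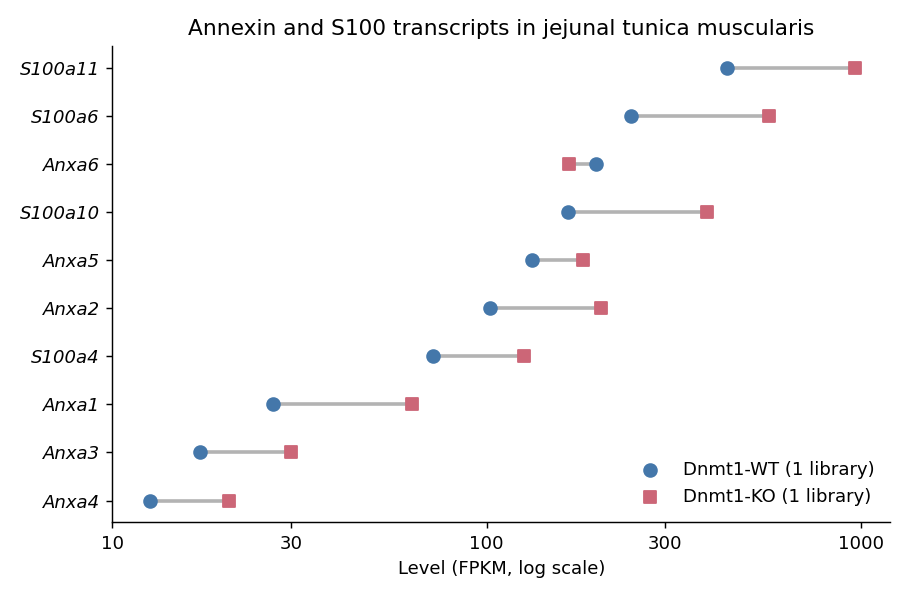
Level of each of the 10 transcripts in FPKM on a log scale, with a circle for the *Dnmt1*-WT library, a square for the *Dnmt1*-KO library and a grey line joining them. The square lies to the right of the circle for 9 transcripts and to the left for *Anxa6*, and the levels run from 12.61 FPKM for *Anxa4* to 966.21 FPKM for *S100a11*.

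*S100a11* and *S100a6* were the most abundant members in both libraries, and the median log2 ratio was 1.18 over the 4 S100 members and 0.76 over the 6 annexins. *S100a11*, a partner of *Anxa1* and *Anxa2*, was at 438.12 FPKM in *Dnmt1*-WT and 966.21 FPKM in *Dnmt1*-KO, a ratio of 2.21. It was the most abundant member in both libraries and ranked 137 among all genes in *Dnmt1*-WT and 64 in *Dnmt1*-KO. *S100a6*, which encodes calcyclin, was at 243.3 FPKM in *Dnmt1*-WT and 568.79 FPKM in *Dnmt1*-KO, a ratio of 2.34. *S100a10*, which encodes the calcium-insensitive light chain of the *Anxa2* complex, was at 165.48 FPKM in *Dnmt1*-WT and 387.45 FPKM in *Dnmt1*-KO, again a ratio of 2.34. These 3 ratios lie within 2.21 and 2.34 although the levels of the genes differ. *S100a4*, a binding partner of nonmuscle myosin that is widely used as a marker of fibroblasts and is also found in leukocytes, was at 72.03 FPKM in *Dnmt1*-WT and 125.62 FPKM in *Dnmt1*-KO, a ratio of 1.74. The 4 S100 members summed to 918.93 FPKM in *Dnmt1*-WT and 2048.07 FPKM in *Dnmt1*-KO, a ratio of sums of 2.23.

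Among the annexins the ratio was largest for *Anxa1*, the glucocorticoid-induced annexin that dampens inflammation through formyl peptide receptors. Its level was 26.91 FPKM in *Dnmt1*-WT and 63.05 FPKM in *Dnmt1*-KO, a ratio of 2.34, which puts it beside *S100a6* and *S100a10*. *Anxa2*, which with *S100a10* forms a complex at the inner face of the plasma membrane and binds plasminogen and its activator on the cell surface, was at 102.25 FPKM in *Dnmt1*-WT and 202.13 FPKM in *Dnmt1*-KO. Its ratio was 1.98, just under the limit of 2, and reached 2.02 when the median log2 ratio of the genes at 1 FPKM or more in both libraries, -0.03, was set to 0. *Anxa3* was at 17.09 FPKM in *Dnmt1*-WT and 29.99 FPKM in *Dnmt1*-KO, a ratio of 1.75. For *Anxa4*, an annexin known from epithelia, the values were 12.61 FPKM and 20.55 FPKM, a ratio of 1.63 and the lowest level of the 10 in each library.

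*Anxa5*, which binds phosphatidylserine and is used as a probe for dying cells, differed less, at 132.4 FPKM in *Dnmt1*-WT and 181.46 FPKM in *Dnmt1*-KO, a ratio of 1.37. *Anxa6*, the largest annexin, built from a duplicated annexin core, was at 195.6 FPKM in *Dnmt1*-WT and 166.34 FPKM in *Dnmt1*-KO, a ratio of 0.850. It was the most abundant annexin of the *Dnmt1*-WT library and ranked behind *Anxa2* and *Anxa5* in the *Dnmt1*-KO library. The 6 annexins together summed to 486.86 FPKM in *Dnmt1*-WT and 663.52 FPKM in *Dnmt1*-KO, a ratio of sums of 1.36, and their ratios spread from 0.850 to 2.34, wider than the range of 1.74 to 2.34 of the 4 S100 genes.

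The order of the members by level was kept at both ends. *S100a11* and *S100a6* were highest, and *S100a4*, *Anxa1*, *Anxa3* and *Anxa4* were lowest, in that order, in both libraries. In between, *Anxa6* ranked 3 among the 10 in *Dnmt1*-WT and 6 in *Dnmt1*-KO, while *Anxa2* ranked 6 and 4. All members summed to 1405.79 FPKM in *Dnmt1*-WT, 0.327% of the FPKM of that library, and to 2711.59 FPKM in *Dnmt1*-KO, or 0.588%. The FPKM ratio between genes within a library was compared for partners in known complexes and for the abundant annexins. *S100a10* was 1.62 times *Anxa2* in *Dnmt1*-WT and 1.92 times in *Dnmt1*-KO. *S100a11* was 16.3 times *Anxa1* in *Dnmt1*-WT and 15.3 times in *Dnmt1*-KO. *Anxa2* was 0.523 times *Anxa6* in *Dnmt1*-WT and 1.22 times in *Dnmt1*-KO, and *Anxa5* was 0.677 times *Anxa6* in *Dnmt1*-WT and 1.09 times in *Dnmt1*-KO, so that the balance of both with *Anxa6* was inverted.

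Set against all genes at 10 FPKM or more, the members with a ratio of 2 or more lay near the upper edge. Of the 6420 genes with a geometric mean of 10 FPKM or more, 2.35% had a larger ratio than *Anxa1*, 2.37% a larger ratio than *S100a10*, 2.38% a larger ratio than *S100a6* and 2.70% a larger ratio than *S100a11*. The same share was 3.69% for *Anxa2*, 5.42% for *Anxa3*, 5.50% for *S100a4*, 7.09% for *Anxa4* and 13.6% for *Anxa5*. For *Anxa6* it was 70.0%, inside the bulk of the genes. With the values as deposited, the most abundant genes were shifted upwards as a group. Among the 648 genes at 100 FPKM or more 62.0% had a ratio above 1 and 38.0% below, with a median log2 ratio of 0.14. Division by the FPKM sum lowers every log2 ratio by 0.10, so this shift is much smaller under that scaling. A ratio of 2 or more was found for 4.17% and of 0.5 or less for 2.93% of those 648 genes, which include *Anxa2*, *Anxa5*, *Anxa6*, *S100a6*, *S100a10* and *S100a11*.

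**Figure D2:**
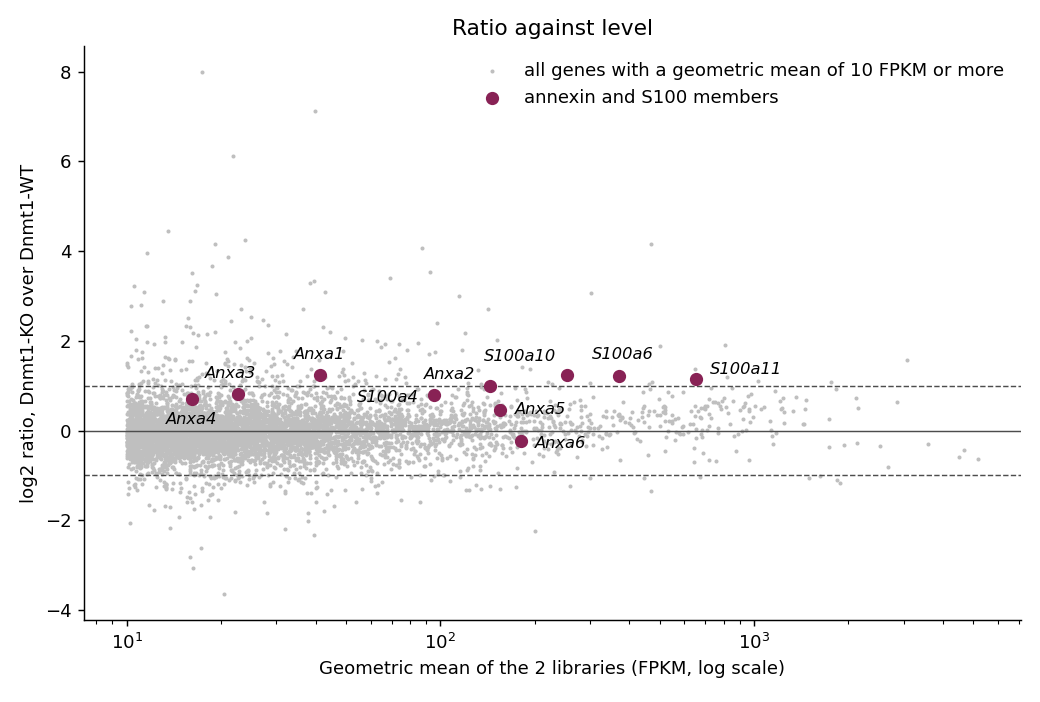
log2 ratio of *Dnmt1*-KO to *Dnmt1*-WT against the geometric mean of the libraries in FPKM on a log scale, for the 6420 genes at 10 FPKM or more (grey points) and the 10 members (dark points), with dashed lines at ratios of 2 and 0.5. *Anxa1*, *S100a6*, *S100a10* and *S100a11* lie above the upper dashed line, *Anxa2* lies just under it, and *Anxa6* lies below 0.

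The scaling between libraries did not decide the direction of any member. Over the scalings and pseudocounts tried, the ratio ranged from 2.18 to 2.39 for *Anxa1*, *S100a6* and *S100a10*, from 2.06 to 2.25 for *S100a11* and from 1.84 to 2.02 for *Anxa2*. It ranged from 1.64 to 1.79 for *Anxa3*, from 1.63 to 1.78 for *S100a4*, from 1.52 to 1.66 for *Anxa4* and from 1.28 to 1.4 for *Anxa5*. *Anxa6* stayed below 1 throughout, between 0.793 and 0.869. With the limit lowered to 1.5, 8 of the 10 members passed it, against 19.7% of all genes and 9.36% of those at 10 FPKM or more, and *Anxa5* and *Anxa6* were the members that did not.

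**Figure D3:**
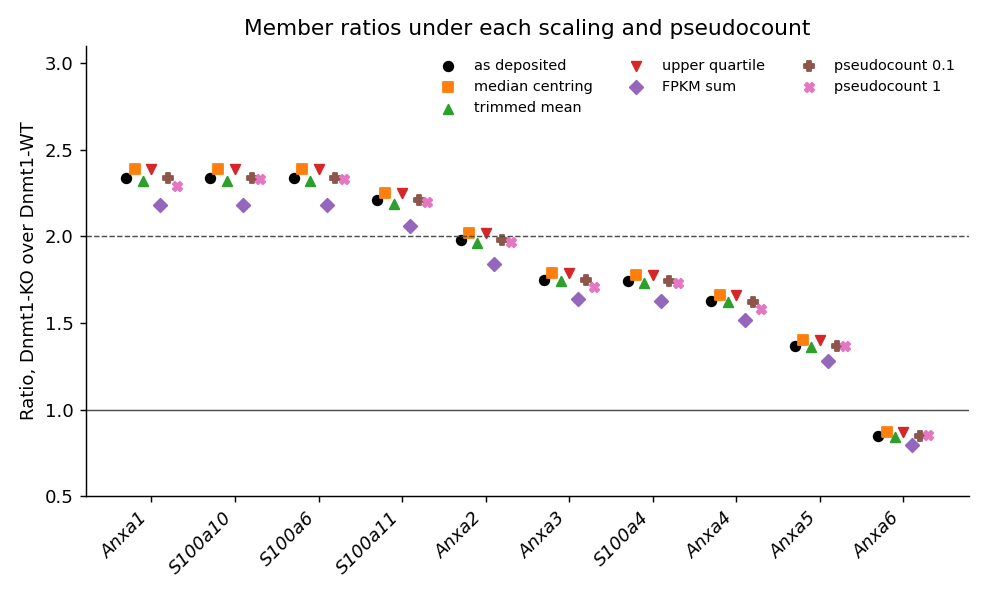
Ratio of *Dnmt1*-KO to *Dnmt1*-WT for each member with the FPKM as deposited (black circles), under 4 scalings and with a pseudocount of 0.1 or 1, with a dashed line at 2 and a solid line at 1. Only *Anxa2* moves across 2, from 1.84 to 2.02, and no member crosses 1.

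All 10 genes are protein coding. On GRCm38, *Anxa1* lies on chromosome 19 from 20373428 to 20390944 on the minus strand, *Anxa2* on chromosome 9 from 69453620 to 69491795 on the plus strand, and *Anxa6* on chromosome 11 from 54979108 to 55033445 on the minus strand. *Anxa3* is on chromosome 5 from 96793339 to 96845966 on the plus strand, *Anxa4* on chromosome 6 from 86736840 to 86793584 on the minus strand, and *Anxa5* on chromosome 3 from 36448923 to 36475894 on the minus strand. The 6 annexins are thus scattered over 6 chromosomes. The 4 S100 members are all on chromosome 3 and on the plus strand, *S100a4* from 90603771 to 90606045, *S100a6* from 90612882 to 90624181, *S100a11* from 93520488 to 93526287 and *S100a10* from 93555080 to 93564643. *S100a4* ends 6.84 kb before *S100a6*, and *S100a11* ends 28.8 kb before *S100a10*.

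Along chromosome 3, S100 genes with different levels and ratios lay side by side. A block of 184.7 kb holds *S100a1*, *S100a13*, *S100a14*, *S100a16*, *S100a3*, *S100a4*, *S100a6*, *S100a7a*, *S100a8* and *S100a9*, and *S100a11* and *S100a10* follow 2.83 Mb further on. Inside the block the muscle-expressed genes *S100a1* (99.56 FPKM in *Dnmt1*-WT and 136.63 FPKM in *Dnmt1*-KO, a ratio of 1.37), *S100a13* (56.4 and 81.15 FPKM, 1.44) and *S100a16* (60.17 and 89.62 FPKM, 1.49) had ratios below those of *S100a4* and *S100a6*. Between and beside them, *S100a14* was at 0.05 FPKM in *Dnmt1*-WT and 0.03 FPKM in *Dnmt1*-KO, *S100a3* at 0.14 and 0.26 FPKM, *S100a7a* at 0.7 and 0.6 FPKM and *S100a9* at 0.33 and 0.44 FPKM, levels too low to read. *S100a8*, which with *S100a9* makes up the calprotectin of neutrophils, was listed at 0 in *Dnmt1*-WT and at 2 FPKM in *Dnmt1*-KO. Strongly and hardly expressed genes thus alternate within the block, and its 2 members had the largest ratios among its genes above 1 FPKM in both libraries.

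The remaining genes of both families gave a comparison for the members. Of the 5 other annexins above 0 FPKM in both libraries, 3 had a ratio above 1, against 50.3% of all genes. A ratio of 2 or more was found for 1 of them, against 11.8% of all genes, and their median log2 ratio was 0.12. *Anxa13*, an annexin of intestinal epithelium, was at 2.87 FPKM in *Dnmt1*-WT and 11.89 FPKM in *Dnmt1*-KO, a ratio of 4.14. *Anxa7* (19.83 and 21.61 FPKM), *Anxa8* (10.91 and 12.54 FPKM), *Anxa9* (1.69 and 1.47 FPKM) and *Anxa11* (59.99 and 50.26 FPKM) had ratios between 0.838 and 1.15, and *Anxa10* was listed at 0 in *Dnmt1*-WT and at 0.08 FPKM in *Dnmt1*-KO. *Anxa11*, a binding partner of *S100a6*, thus resembled *Anxa6* and not *Anxa1* or *Anxa2* in its ratio. Of the 9 other S100 genes above 0 FPKM in both libraries, 7 had a ratio above 1, against 50.3% of all genes. None had a ratio of 2 or more, against 11.8%, and their median log2 ratio was 0.46. *S100g*, a calcium buffer of enterocytes, came closest, at 6.08 FPKM in *Dnmt1*-WT and 11.93 FPKM in *Dnmt1*-KO, a ratio of 1.96. *S100b*, known from glia, was at 12.65 and 13.62 FPKM, a ratio of 1.08. *S100a5* and *S100z* were not analysed here.

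**Figure D4:**
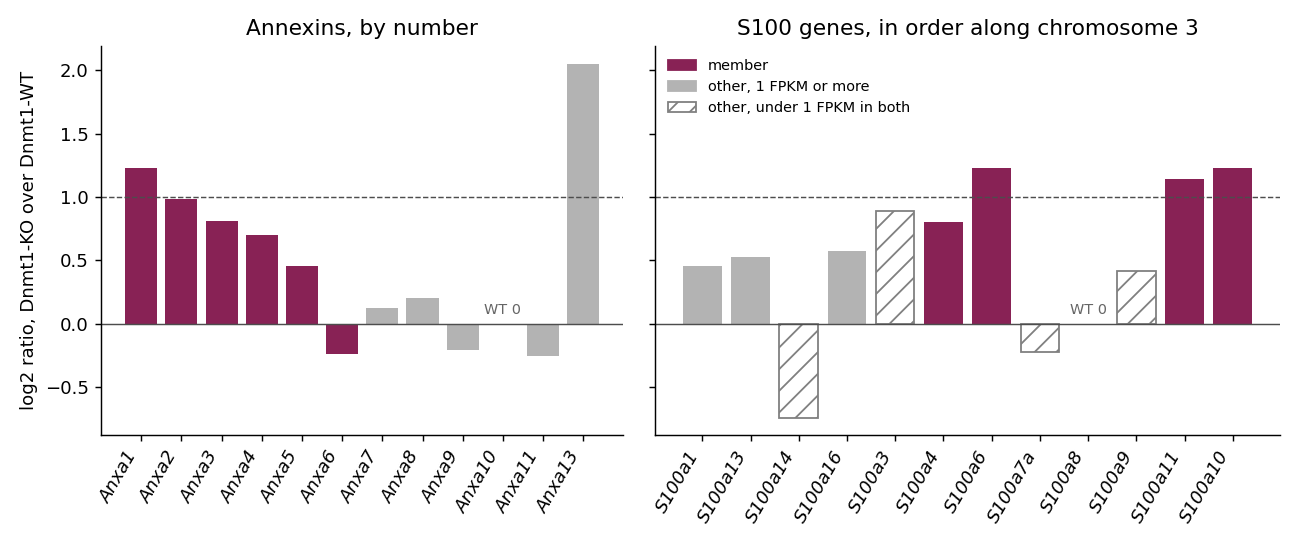
log2 ratio of *Dnmt1*-KO to *Dnmt1*-WT for the annexins in order of their number (left) and for the S100 genes in their order along chromosome 3 (right), with members in dark bars, other genes in grey, genes under 1 FPKM in both libraries hatched, genes listed at 0 in *Dnmt1*-WT written as WT 0 and a dashed line at a ratio of 2. The tallest bars among genes above 1 FPKM are those of *Anxa13*, a ratio of 4.14, and of the members *Anxa1*, *S100a6* and *S100a10*, each 2.34.

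The promoters of the members are described because DNMT1 maintains methylation at CG dinucleotides. RefSeq promoter sequences (GRCm38.p6) were at hand for 7 of the 10 members, with 2 start sites for *Anxa4*, and *Anxa3*, *Anxa6* and *S100a10* had no entry. The 250 bases before the RefSeq start site are shown for the 4 members with an entry and the largest ratios, 5′ to 3′ on the strand of the gene, with each CG in capitals. The start sites of RefSeq and the gene ends of GENCODE differ, so that the *Anxa1* window lies inside the gene span given above and the other 3 windows overlap the first bases of theirs.
*Anxa1*, chr19:20390672-20390921, minus strand: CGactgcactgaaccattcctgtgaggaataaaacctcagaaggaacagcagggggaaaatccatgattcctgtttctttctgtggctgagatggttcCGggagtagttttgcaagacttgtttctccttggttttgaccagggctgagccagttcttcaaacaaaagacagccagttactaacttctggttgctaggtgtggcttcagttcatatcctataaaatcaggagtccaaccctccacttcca
*Anxa2*, chr9:69453433-69453682, plus strand: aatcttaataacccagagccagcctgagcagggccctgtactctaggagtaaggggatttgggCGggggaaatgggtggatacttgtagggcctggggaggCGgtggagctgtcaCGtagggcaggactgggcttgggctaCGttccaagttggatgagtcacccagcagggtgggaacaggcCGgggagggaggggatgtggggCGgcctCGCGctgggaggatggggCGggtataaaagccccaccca
*S100a6*, chr3:90612644-90612893, plus strand: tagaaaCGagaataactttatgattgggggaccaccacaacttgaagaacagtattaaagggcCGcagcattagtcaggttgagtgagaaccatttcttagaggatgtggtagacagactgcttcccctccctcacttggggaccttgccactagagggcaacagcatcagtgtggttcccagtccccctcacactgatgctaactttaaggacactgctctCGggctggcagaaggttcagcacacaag
*S100a11*, chr3:93520246-93520495, plus strand: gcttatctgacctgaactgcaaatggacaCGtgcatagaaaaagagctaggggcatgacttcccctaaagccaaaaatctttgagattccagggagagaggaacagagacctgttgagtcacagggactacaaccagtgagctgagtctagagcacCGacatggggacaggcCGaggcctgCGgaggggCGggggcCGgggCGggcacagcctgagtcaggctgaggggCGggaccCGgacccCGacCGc

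*Anxa1* has 2 CG in this window and *S100a6* has 3, while *Anxa2* has 9 and *S100a11* has 11. Over 32851 promoters of the same length the median was 6 CG, and 29.0% had as few as *Anxa1* or fewer, against 66.5% for *S100a11*. These 4 windows were chosen for the ratios of their genes, and no relation between CG and ratio is read from them. Of the other members, *S100a4* had 2 CG in its window, *Anxa5* had 13, and the start sites of *Anxa4* had 2 and 13. Methylation was not analysed here. The letters of 4 motifs were searched on both strands of these windows. The CArG box, to which SRF binds, was found in none of the 8 member promoters and in 1.47% of all promoters. The letters TATAAA, the core of the TATA box, were found in 3, those of *Anxa1* at 32 bases, *S100a4* at 31 bases and *Anxa2* at 17 bases before the start site, and in 12.4% of all promoters. The letters GGGCGG, a GC box, were found in 2, those of *Anxa2* and *S100a11*, with 3 matches each, and in 32.7% of all promoters. The letters TGANTCA, which AP-1 factors recognise, were found in the same 2 promoters, with 1 match in *Anxa2* and 2 in *S100a11*, and in 6.75% of all promoters. These matches are descriptions of the sequence and not binding sites.

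The number of transcript variants found per gene was the same in both libraries for 8 of the 10 members and for 73.9% of all genes, so the members lay near the rest. It was 1 in *Dnmt1*-WT and 2 in *Dnmt1*-KO for *S100a4*, and 2 and 1 for *S100a6*. *Anxa4* and *Anxa6* had 2 variants in each library and the remaining members 1. Some member transcripts share sequence with other genes. *S100a11* matches *Gm12854* and *Gm7665* over 297 bases at 98.99% and 98.65% identity, so its reads could be split or shared with those copies. *S100a4* shares 302 exon bases on the same strand with *Gm42674*, and *Anxa3* shares 112 with *Gm42603*. On the opposite strand, *Anxa2* shares 98 exon bases with *Gm16144* and *Anxa4* shares 75 with *Gm44036*. The kit and counting are not stated to keep strand, so reads from these stretches cannot be assigned.

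Receptors and partners of the members were followed through lists of known interactors. Among receptors, *Fpr2*, the receptor through which *Anxa1* acts, was listed at 0 in *Dnmt1*-WT and at 1.12 FPKM in *Dnmt1*-KO, and *Fpr1* was at 0.19 and 0.76 FPKM. *Ager*, which encodes the S100 receptor RAGE, was at 1.08 FPKM in *Dnmt1*-WT and 2.85 FPKM in *Dnmt1*-KO, a ratio of 2.64. *Cd36*, a scavenger receptor and fatty acid transporter, was at 12.78 and 34.78 FPKM, a ratio of 2.72, and *Tlr4* was at 2.09 and 2.91 FPKM, a ratio of 1.39. *Bsg*, by far the most abundant receptor gene of the list, was at 358.86 and 332.63 FPKM, a ratio of 0.927. Of the 5 receptor genes above 0 FPKM in both libraries, 3 thus had a ratio of 2 or more, against 11.8% of all genes and 3.61% of those at 10 FPKM or more, and except for *Cd36* they were at low levels. *Fpr3* was not analysed here.

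Most intracellular partners were lower in *Dnmt1*-KO. Of 12 partner genes above 0 FPKM in both libraries, 10 had a ratio below 1, against 49.1% of all genes, and their median log2 ratio was -0.36. *Ahnak*, the giant scaffold protein held at the membrane by the *Anxa2* and *S100a10* complex, was at 79.11 FPKM in *Dnmt1*-WT and 53.9 FPKM in *Dnmt1*-KO, a ratio of 0.681. The FPKM of *S100a10* was 2.09 times that of *Ahnak* in *Dnmt1*-WT and 7.19 times in *Dnmt1*-KO. *Cacybp*, the calcyclin binding protein, was at 25.58 and 16.48 FPKM, a ratio of 0.644, and *S100a6* was 9.51 times *Cacybp* in *Dnmt1*-WT and 34.5 times in *Dnmt1*-KO. *Pla2g4a*, the cytosolic phospholipase that *Anxa1* restrains, was at 8.89 and 4.49 FPKM, a ratio of 0.505. *Ppp5c*, a phosphatase that binds S100 proteins, was at 44.7 and 42.12 FPKM, a ratio of 0.942. *Myh9*, the nonmuscle myosin heavy chain to which *S100a4* binds, was the exception among expressed partners, at 60.22 and 96.9 FPKM, a ratio of 1.61, close to the 1.74 of *S100a4*. The other partner with a ratio above 1 was *Trpv6*, at 0.15 and 0.32 FPKM. *Htr1b* was listed at 0 in both libraries, *Trpv5* at 0 in *Dnmt1*-WT and *Scn10a* at 0 in *Dnmt1*-KO.

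The plasminogen system, which the *Anxa2* and *S100a10* complex serves at the cell surface, contained 2 genes with a ratio of 2 or more among the 5 genes reported and above 0 FPKM in both libraries, against 11.8% of all genes, and their median log2 ratio was 0.83. Both genes were at low levels, where such ratios are more common. *Plaur*, the urokinase receptor, was at 1.55 and 7.65 FPKM, a ratio of 4.94, and *Plau*, urokinase itself, at 2.36 and 6.79 FPKM, a ratio of 2.88. *Serpine2*, a serine protease inhibitor, was the most abundant, at 54.29 and 96.27 FPKM, a ratio of 1.77. *Plat*, the tissue plasminogen activator, was at 22.92 and 22.41 FPKM, and the plasminogen receptor gene *Plgrkt* at 12.43 and 15.02 FPKM. *Plg* was listed at 0 in *Dnmt1*-WT and at 0.03 FPKM in *Dnmt1*-KO. *Serpinf2* and *Serpinb2* were not analysed here.

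Genes of membrane repair, in which annexins seal wounds of the plasma membrane, lay near all genes in their counts past the limits. Of 12 genes, 1 had a ratio of 2 or more, against 11.8% of all genes, and 1 a ratio of 0.5 or less, against 4.98%, and 9 had a ratio above 1, against 50.3%, or 7 when each library was divided by its FPKM sum, where the share over all genes was 43.0%. *Cav3*, the muscle caveolin, was at 43.89 FPKM in *Dnmt1*-WT and 18.69 FPKM in *Dnmt1*-KO, a ratio of 0.426. *Capns1*, the small calpain subunit, was at 414.82 and 557.43 FPKM, a ratio of 1.34. *Ehd2* was at 145.47 and 133.66 FPKM and *Chmp4b* at 78.38 and 82.86 FPKM, ratios of 0.919 and 1.06, the latter below 1 after division by the FPKM sum. The gene with a ratio of 2 or more was *Trim72*, at 0.14 and 0.53 FPKM.

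Because *Anxa1* is induced by glucocorticoids, 8 genes known for that induction were set beside it. A ratio of 2 or more was found for 2 of them, against 11.8% of all genes, and 5 had a ratio above 1, against 50.3%, with a median log2 ratio of 0.82. *Mt2*, a metallothionein, was at 12.31 FPKM in *Dnmt1*-WT and 120.32 FPKM in *Dnmt1*-KO, a ratio of 9.77, and *Errfi1*, a feedback inhibitor of EGF receptor signalling, at 13.92 and 38.54 FPKM, a ratio of 2.77. The 2 most abundant in *Dnmt1*-WT, *Tsc22d3*, at 66.76 and 56.8 FPKM, and *Klf9*, at 65.95 and 47.64 FPKM, had ratios of 0.851 and 0.722. *Fkbp5* (17.4 and 31.86 FPKM, a ratio of 1.83), *Sgk1* (9.36 and 17.87 FPKM, 1.91) and *Per1* (26.37 and 44.72 FPKM, 1.70) lay between the limits. So did *Zbtb16*, which was lower in *Dnmt1*-KO, at 19.19 and 16.84 FPKM, a ratio of 0.878. With the limit at 1.5, 5 of the 8 passed it, against 19.7% of all genes and 9.36% of those at 10 FPKM or more.

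The cell types that could contribute annexin and S100 transcripts were read from marker lists. Over all genes above 0 FPKM in both libraries, 50.3% had a ratio above 1 and 49.1% below. A ratio of 2 or more was found for 11.8% of them and a ratio of 0.5 or less for 4.98%. Smooth muscle markers defined the labelled tissue, led by *Acta2* (5408.13 and 4016.24 FPKM) and *Actg2* (3974.45 and 3223.48 FPKM), and all 8 had a ratio below 1, 3 of them of 0.5 or less, with a summed level of 19421 FPKM in *Dnmt1*-WT and 13297 FPKM in *Dnmt1*-KO. All 10 macrophage markers had a ratio above 1 and 9 had 2 or more, or 8 after division by the FPKM sum, and their sum was 144.18 FPKM in *Dnmt1*-WT and 507.25 FPKM in *Dnmt1*-KO, with *C1qa* (31.57 and 125.26 FPKM) and *Lyz2* (27.84 and 112.85 FPKM) most abundant by mean level. All 8 leukocyte markers had a ratio of 2 or more, and their sum was 29.41 and 98.07 FPKM, with *Coro1a* (7.5 and 23.29 FPKM) and *Cd52* (5.14 and 25.88 FPKM) highest. The macrophage and leukocyte sums were thus higher in *Dnmt1*-KO, while the smooth muscle sum was lower. The sums of all other cell types, given below, were also higher. The ratio of sums was 10.97 for adipocyte markers and 3.52 for macrophage markers. The S100 members and *Anxa1* were higher too, and the part of any of these cell types in the ratios was not tested.

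Other markers also differed between the libraries. Their counts as deposited stand against the same shares of all genes, 50.3% above 1, 11.8% at 2 or more and 4.98% at 0.5 or less. Of 8 fibroblast markers 6 had a ratio above 1, or 7 after median or upper quartile scaling, with a sum of 3318 FPKM in *Dnmt1*-WT and 5074 FPKM in *Dnmt1*-KO, led by *Col3a1* (1148.06 and 1552.41 FPKM) and *Col1a1* (700.41 and 1517.78 FPKM). As deposited, *Pdgfra* (68.95 and 40.72 FPKM) and *Dpt* (229.05 and 224.67 FPKM) went the other way, with ratios of 0.591 and 0.981. Of 8 mesothelial markers 6 had a ratio above 1, with a sum of 412.82 and 568.88 FPKM. Its most abundant genes, *Krt19* at 96.08 and 188.37 FPKM and *Upk3b* at 126.21 and 117.37 FPKM, differed in direction, and the keratins of the list are shared with intestinal epithelium. All 6 endothelial markers had a ratio above 1 and 5 had 2 or more, or 4 after division by the FPKM sum, with a sum of 47.35 and 120.04 FPKM, led by *Pecam1* (15.76 and 38.84 FPKM) and *Cdh5* (13.96 and 28.37 FPKM). Of 6 enterocyte markers 5 had a ratio above 1 and 2 had 2 or more, or 1 after division by the FPKM sum. The list had a sum of 276.23 and 563.19 FPKM, led by *Apoa4* (208.37 and 433.8 FPKM) and *Fabp2* (38.79 and 85.06 FPKM). *Anxa4*, *Anxa13* and *S100g*, known from epithelia, also had ratios above 1, as did 50.3% of all genes, and nothing on enterocytes is read from this. The remaining enterocyte marker, *Sis*, went the other way, at 1.93 FPKM in *Dnmt1*-WT and 0.51 FPKM in *Dnmt1*-KO. Its ratio of 0.264 was past the lower limit, and it stayed so after division by the FPKM sum. All 6 adipocyte markers above 0 FPKM in both libraries had a ratio of 2 or more, and *Lep* was listed at 0 in *Dnmt1*-WT. With *Lep* included, the list summed to 109.79 FPKM in *Dnmt1*-WT and 1204.6 FPKM in *Dnmt1*-KO. *Fabp4* (103.72 and 874.84 FPKM) and *Cfd* (2.61 and 182.62 FPKM) were highest. Of 6 enteric glia markers 4 had a ratio above 1, or 3 after division by the FPKM sum, with a median log2 ratio of 0.08 and a sum of 73.86 and 102.1 FPKM, led by *Sox10* (25.16 and 27.88 FPKM) and *Gfap* (4.78 and 35.36 FPKM). Neutrophil markers were low, and 2 of 3 above 0 FPKM in both libraries had a ratio of 2 or more. With *Ltf* included, the list summed to 7.7 FPKM in *Dnmt1*-WT and 10.25 FPKM in *Dnmt1*-KO. *Camp* (6.84 and 5.71 FPKM) and *Retnlg* (0.67 and 4.06 FPKM) were the highest of them, *Mpo* was listed at 0 in both libraries, *Ltf* at 0 in *Dnmt1*-WT, and *Ly6g*, *Elane* and *Ngp* were not analysed here. The part of each of these cell types in the ratios of the members was not tested.

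**Figure D5:**
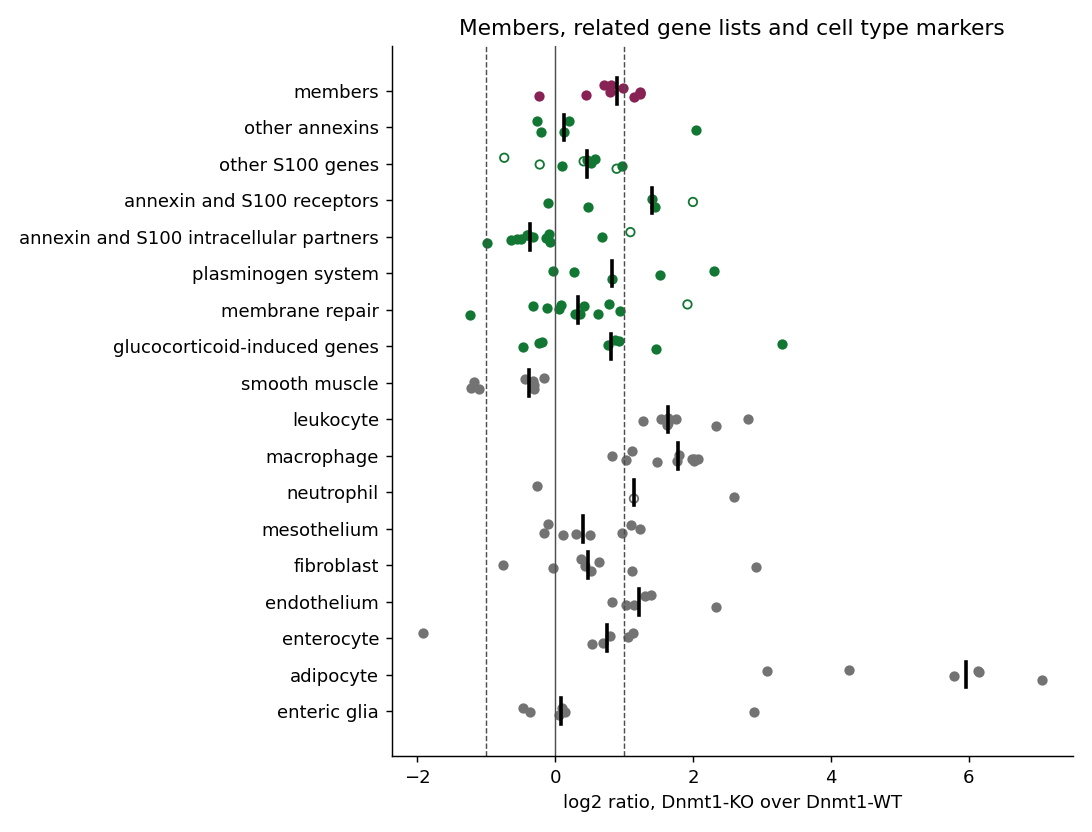
log2 ratio of *Dnmt1*-KO to *Dnmt1*-WT for each gene above 0 FPKM in both libraries, by list, with open points for genes under 1 FPKM in both, a black bar at each list's median and dashed lines at ratios of 2 and 0.5. The median of the members is 0.90, that of the intracellular partners -0.36, that of smooth muscle markers -0.38 and that of macrophage markers 1.78.

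The labels were checked through the targeted gene. *Dnmt1* was at 7.58 FPKM in *Dnmt1*-KO against 11.58 FPKM in *Dnmt1*-WT, a ratio of 0.655. This is 1 value for the whole gene and the whole tissue, so that reads from deleted and other exons, or from cells that keep the gene, are not separated. FPKM summed to 429698 in *Dnmt1*-WT and 460845 in *Dnmt1*-KO, with 16632 and 17055 genes above 0. These sums do not measure depth, since FPKM is already divided by the mapped total, and counts behind single genes are unknown.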

How the data were processed

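mRNA-seq values of the jejunal muscle layer at P15 were used, with 1 library from *Dnmt1*-WT and 1 from *Dnmt1*-KO mice. The authors made TruSeq RNA libraries and mapped the reads to GRCm38/mm10. The submitters' processing notes list TopHat 1.4.1 and Cufflinks 2.0.2. The deposited expression values are FPKM, which the authors obtained by dividing fragments by the length of the transcript and the mapped reads. The deposited table also gives the number of transcript variants found per gene, and a ratio of the authors, given for some genes, which was not used. The fragments behind each value are unknown, and no interval is given.

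Ratios were formed as *Dnmt1*-KO over *Dnmt1*-WT FPKM, without rescaling, over the 16102 genes above 0 FPKM in both libraries. A ratio of 2 or more, or of 0.5 or less, was counted. No test between genotypes was possible with 1 library each. The members and gene lists were chosen with earlier results of these data known. The genes named were the 10 members, the other annexin and S100 genes, and in each related list the genes with at least 1 FPKM in a library and a ratio past these limits together with the 3 most abundant. For each cell type the 2 most abundant markers were named, with markers listed at 0 in both libraries. *Fpr1*, *Fpr2*, *Plg*, *Cacybp*, *Pla2g4a*, *Trpv5*, *Trpv6*, *Scn10a*, *Htr1b*, *Fkbp5*, *Sgk1*, *Per1*, *Zbtb16*, *Trim72*, *Ltf*, *Lep*, *Sis*, *Pdgfra* and *Dpt* are not covered by this rule: their values were seen before they were named. Of the plasminogen list, 1 gene is not reported here, and the list's values leave it out. *Adgre1* was matched under its older symbol. The alternatives were 4 scalings (the median over genes at 1 FPKM or more in both libraries, a trimmed mean, the upper quartile and the FPKM sum), pseudocounts of 0.1 and 1, a minimum of 1 FPKM and a ratio limit of 1.5. Counting and scaling were tested on simulated data, with planted changes larger than every member ratio and a common factor between the libraries. A limit on the error of the factor was set only for the median and the trimmed mean. A shift of the abundant genes as a group was not simulated. Gene positions came from GENCODE M21 (GRCm38), and promoter sequences from RefSeq (GRCm38.p6). Transcripts of the members were compared with those of all other genes by BLAST 2.17.0 at 95% identity over at least 100 bases. Python 3.11.15, numpy 2.4.6, pandas 2.3.3 and matplotlib 3.10.9 were used.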

Additional observations from a re-analysis of the deposited data

How the results depend on the processing

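No paired analysis was possible because each genotype has 1 library and the labels give no replicate number, and for the same reason no library could be left out. Of the member ratios, none crossed 1 under any scaling or pseudocount. The count of members with a ratio of 2 or more was 4 or 5 at the limit of 2 and 8 at a limit of 1.5. The median log2 ratio of the members, 0.90 as deposited, was 0.93 after median centring over the genes at 1 FPKM or more in both libraries, whose median log2 ratio was -0.03, 0.88 after trimmed mean scaling, 0.93 after upper quartile scaling, 0.80 after division by the FPKM sum, which lowers every log2 ratio by 0.10, and 0.89 with a pseudocount of 1. The other S100 genes with a ratio of 2 or more, 0 as deposited, numbered 1 after median centring, upper quartile scaling or with a pseudocount of 0.1 or 1, and 2 at a limit of 1.5. The receptors, 3 as deposited, numbered 4 with a pseudocount of 0.1, and 2 with a pseudocount of 1 or a minimum of 1 FPKM. The intracellular partners, 1 as deposited, numbered 0 after division by the FPKM sum, with either pseudocount and with a minimum of 1 FPKM, and 2 at the limit of 1.5. The membrane repair genes, 1 as deposited, numbered 0 with a pseudocount of 1 and with a minimum of 1 FPKM, and 4 at the limit of 1.5, where the glucocorticoid-induced genes numbered 5 instead of 2. Of all 16102 genes, 1893 had a ratio of 2 or more as deposited, and between 1682 and 1951 under the 4 scalings. The limit of 1.5 was passed by 19.7% of all genes and 9.36% of those at 10 FPKM or more. Shares of all genes are not given for the pseudocounts or the minimum, so those counts cannot be set against them. Genes that crossed a limit through a pseudocount or minimum were at low level or, for genes listed at 0, had no ratio before. Depth per gene is unknown, so values near the lowest above 0, 0.03 FPKM in both libraries, carry little weight.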
